A study of Mus musculus with 24 samples.

Results

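The kidneys of male and female mice were compared for how far their RNA differed between the middle of the active period and the middle of the inactive period. For each gene the quantity followed was the male period change minus the female period change, called the interaction here. The male change was the mean of 6 active male libraries minus the mean of 6 inactive male libraries, and the female change was taken in the same way, on log2 of the normalized count plus 1. A positive interaction means that the male change lay above the female change, and a negative one that it lay below it. All 24 libraries of the series entered, and 17333 of 56748 gene identifiers were tested, those whose normalized counts averaged 10 or more across the libraries.

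The 4 groups, a male and a female one for each period, held 6 libraries each, made from 100 ng of poly A selected kidney RNA and sequenced on an Illumina instrument. They are named below by sex, period and the number in their titles, 25 to 30 for active and 31 to 36 for inactive kidneys. Strain, age, light schedule and clock hour of collection were not given in the sources used here. Nor do these sources say that each library came from a separate animal, so a p-value here weighs a difference against library-to-library spread that could be technical in part. Each period was sampled at 1 time, so a smaller daily swing and a shifted peak cannot be told apart. In bulk tissue, fewer cells of a type and less RNA per cell cannot be told apart either.

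As background, the circadian clock of mammalian cells is a loop of transcription factors. Bmal1 (the product of Arntl) pairs with Clock or Npas2, binds E-box sequences, and switches on the Period, Cryptochrome and Rev-erb genes and the PAR bZIP genes Dbp, Tef and Hlf. Period and Cryptochrome proteins then restrain Bmal1, the Rev-erb repressors (Nr1d1, Nr1d2) hold down Arntl, Npas2 and Cry1, and PAR bZIP proteins and their competitor Nfil3 act at D-boxes. In the kidney this clock is known to time salt and water handling, and many kidney transporters and enzymes differ in level between the sexes.

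The promoters below show the elements through which this loop reads itself, in a clock gene with a D-box pair and in others with E-boxes. Each is the 250 bases before the start site, 5′ to 3′ on the strand of the gene, from RefSeq on GRCm38.p6. Capitals mark the E-box CACGTG or the D-box TTATGTAA. Per3 (chr4:151044666-151044915, minus strand) holds a D-box 205 and another 158 bases before its start. Tef, printed for 1 of its listed starts (chr15:81802423-81802672, plus strand), holds an E-box 127 bases before it. Ciart (chr3:95882229-95882478, minus strand) holds E-boxes at 116, 58 and 44 bases.
Per3: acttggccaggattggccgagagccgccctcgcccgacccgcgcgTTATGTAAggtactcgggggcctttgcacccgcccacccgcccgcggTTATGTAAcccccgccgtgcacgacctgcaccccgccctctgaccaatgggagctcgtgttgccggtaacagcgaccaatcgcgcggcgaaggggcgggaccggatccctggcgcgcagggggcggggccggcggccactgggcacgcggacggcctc
Tef: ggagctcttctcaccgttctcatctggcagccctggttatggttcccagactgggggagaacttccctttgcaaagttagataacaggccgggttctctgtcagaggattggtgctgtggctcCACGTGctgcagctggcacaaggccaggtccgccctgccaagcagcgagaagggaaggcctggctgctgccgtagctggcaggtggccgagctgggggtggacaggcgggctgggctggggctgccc
Ciart: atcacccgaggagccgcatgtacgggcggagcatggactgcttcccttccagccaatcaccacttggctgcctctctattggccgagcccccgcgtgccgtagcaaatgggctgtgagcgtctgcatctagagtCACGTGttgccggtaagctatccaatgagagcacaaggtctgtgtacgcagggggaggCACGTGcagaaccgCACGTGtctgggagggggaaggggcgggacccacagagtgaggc
Searched on both strands, the E-box was in 6.02% and the D-box (TTATGTAA or TTACGTAA) in 0.931% of all 32851 RefSeq promoters of this length. Per3 and Tef passed the interaction test and Ciart did not. Of the clock genes that passed, 6 had a promoter entry, 1 of them with an E-box and 1 with a D-box. Of those that did not pass, 11 had an entry, 4 with an E-box and 0 with a D-box. These counts are by gene, over any of its listed starts, whereas the percentages are by promoter. Elements outside these 250 bases or with other letters were not searched for.

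Recovered reads numbered 31 to 39.3 M per library. Active males 26 and 29 had the highest trends of their values with GC content and the lowest with transcript length. Relative to the mean over all libraries, active male 26 fell by 0.129 and active male 29 by 0.0786 log2 units per doubling of transcript length, and they were higher by 0.167 and 0.129 per 10 points of GC percent. The other active males ranged from 0.0200 to 0.0652 on the GC measure, inactive males from -0.0610 to 0.0547, active females from -0.0649 to 0.0171 and inactive females from -0.100 to 0.0232. On the length measure the other active males ranged from -0.0587 to -0.0143 and inactive males from -0.0413 to -0.0165. Females were all above 0 there, at 0.0120 to 0.0812 in active and 0.0296 to 0.0594 in inactive kidneys. Every interaction below was therefore also computed without active males 26 and 29, and with the trend with length and GC removed from each library. Both checks were added after these values were seen, and the part of this trend in any single result was not tested.

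**Figure D1:**
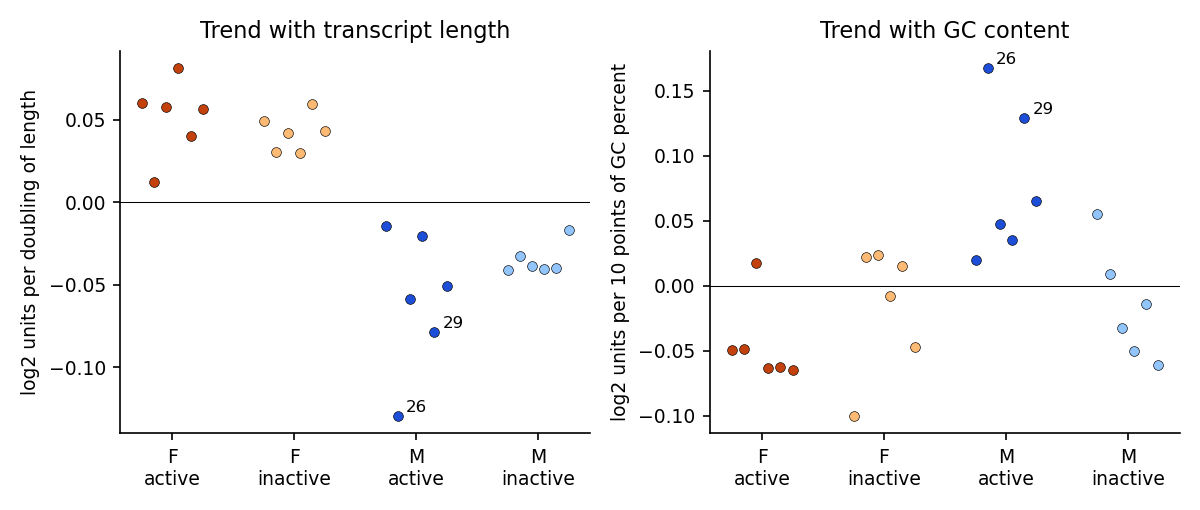
Trend of each library's values with transcript length (left, log2 units per doubling of length) and with GC content (right, log2 units per 10 points of GC percent), 6 libraries per group, each relative to the mean of all libraries. Active males 26 and 29, numbered, have the highest GC trends, at 0.167 and 0.129.

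Many genes changed with the period in each sex, and most of those called in both moved the same way. With limma and Benjamini-Hochberg adjustment, 2592 genes changed with the period in females (15.0% of tested genes) and 2665 in males (15.4%). In females 1382 were higher (7.97%) and 1210 lower (6.98%) in the active period, and in males 1461 were higher (8.43%) and 1204 lower (6.95%). The male and female changes correlated at r = 0.38 across the 17333 genes, which are not independent of each other, and the comparisons share no library. Of 844 genes called in both sexes, 809 moved the same way and 35 moved in opposite directions.

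The interaction passed in 470 genes, 2.71% of those tested, at an adjusted p under 0.05. The male change was above the female change in 245 (1.41%) and below it in 225 (1.30%), the median called difference was 1.35-fold, and 48 genes reached a 2-fold difference. The estimates in males and females had opposite signs in 357 of the 470, the female change was the larger in 91 and the male change in 22. Of the 470, 224 had a period change that passed in females alone, 163 in males alone, 63 in both sexes and 20 in neither. The contrasts share libraries with the interaction, so this is a description of the called genes. Without active males 26 and 29 the count was 153, and 143 of the 470 were among them. With the length and GC trend removed it was 216, with 186 of the 470 among them, and 105 of the 470 were called under both. Without active females 27 and 28 it was 301, with 247 of the 470 among them. The count was 276 without active female 28, 293 without inactive female 32, 290 without inactive female 33, 293 without inactive male 33 and 780 without active male 25.

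**Figure D2:**
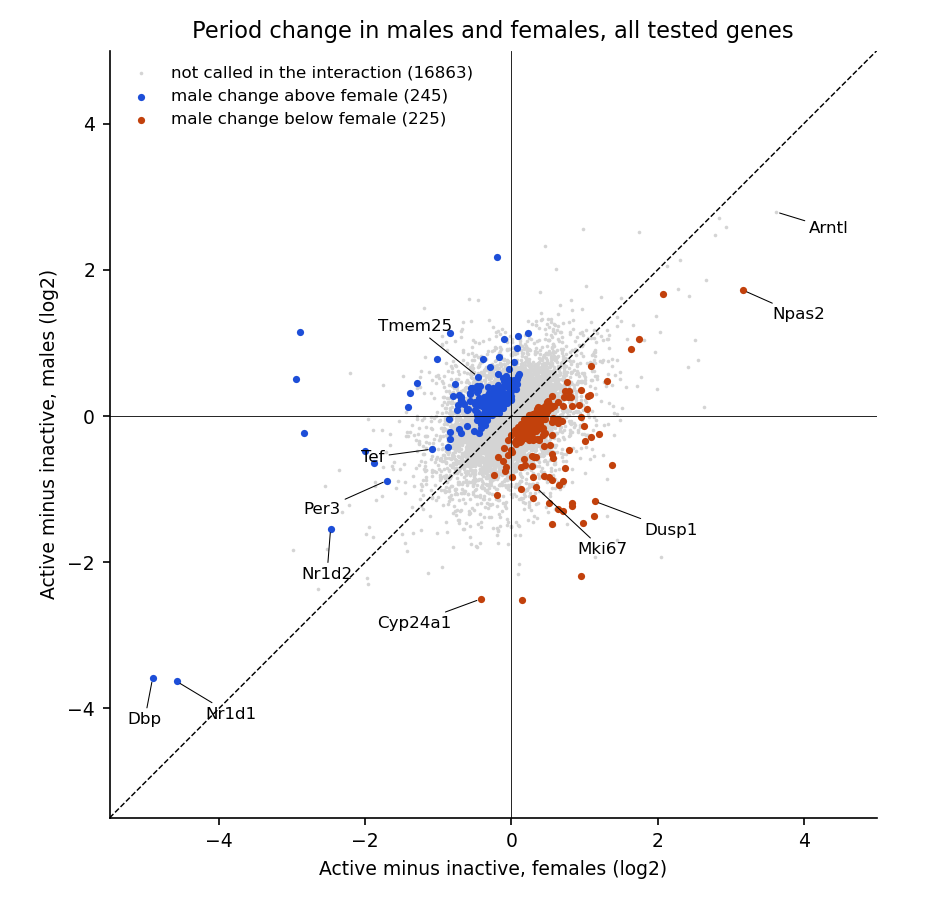
Period change (active minus inactive, log2) of each of the 17333 tested genes in females (horizontal axis) against males (vertical axis). Blue points mark the 245 genes with a male change above the female change and red points the 225 with a male change below it. Genes on the dashed line changed equally in both sexes, and the named clock genes lie on the side of the smaller male change.

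The clock genes called in both sexes moved in the same direction in males and females, and the size of the change differed for 6 of the 19 clock genes described here, being larger in females for each. In the arm that runs with Bmal1, Npas2 rose less in males than in females. In the arm driven through E-boxes, Dbp, Nr1d1, Nr1d2, Per3 and Tef fell less in males. In the arm of Bmal1 and Clock, 1 of 6 genes passed the interaction test, lower, and all 6 estimates were below 0. In the E-box arm, 5 of 13 passed, all higher, and 12 of 13 estimates were above 0. For Per2 and Cry2, which did not pass, this meant a larger estimated rise in males. It was log2 0.98 in males against 0.57 in females for Per2, and 0.32 against 0.16 for Cry2. Over all tested genes 1.30% passed lower and 1.41% higher. The plot of clock estimates shows the period change of all 19 genes in each sex beside the interaction.

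**Figure D3:**
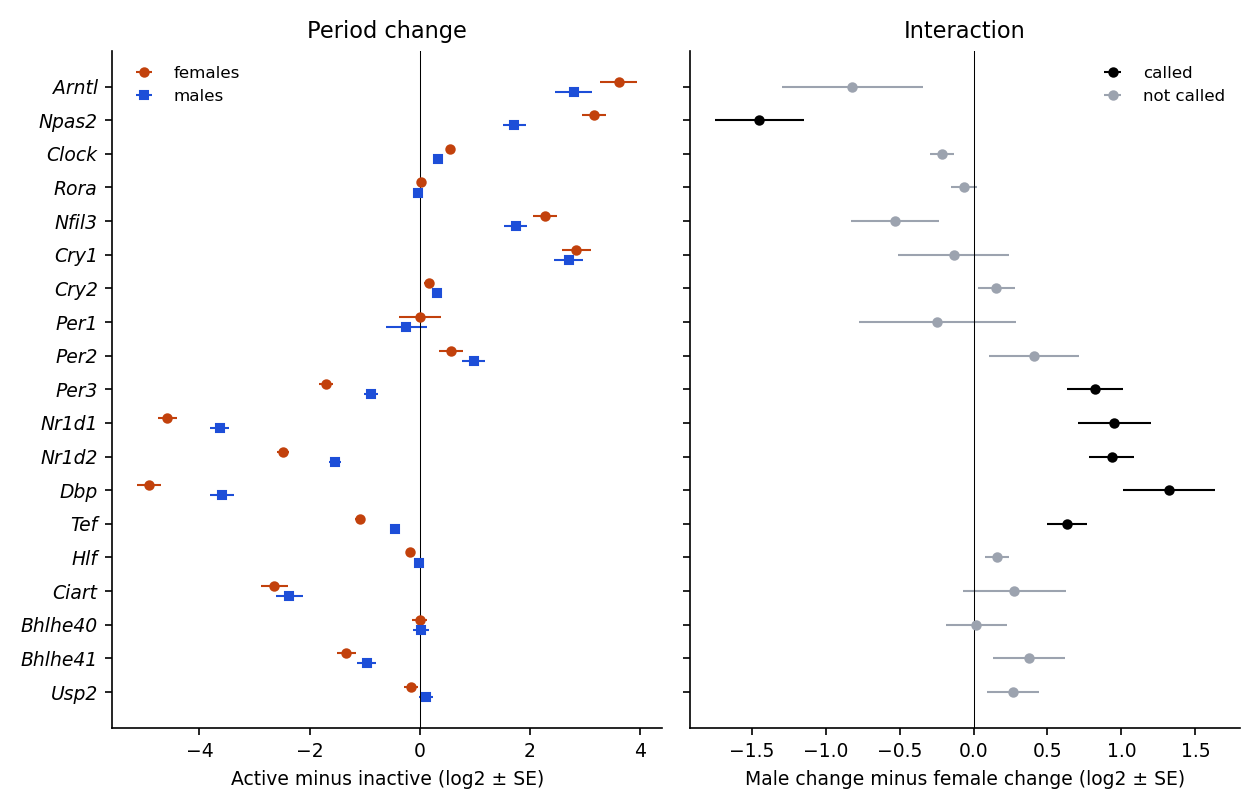
Period change of the 19 clock genes in females (red circles) and males (blue squares) on the left, and the interaction on the right, all in log2 units with bars of ± 1 SE from the fit of 24 libraries. Black points mark the 6 genes that passed, from -1.45 for Npas2 to 1.32 for Dbp.

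Npas2 (ENSMUSG00000026077), the partner of Bmal1 that can stand in for Clock, was at 289.6 to 546 (median 439) normalized counts in active females and 34.2 to 65.1 (median 44.5) in inactive females. In active males it was at 147 to 332 (median 235) and in inactive males at 38 to 95.6 (median 70.4). The periods did not overlap in either sex, and 5 of the 6 active females lay above the highest active male. The rise was 9-fold in females and 3.3-fold in males, and the interaction was -1.45 ± 0.30, adjusted p = 0.00998.

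The remaining genes of this arm gave no call. Arntl (Bmal1) was at 924 to 1336 (median 1195) in active females and 405 to 793 (median 719) in active males, with no overlap, and at 36.2 to 164 (median 113) and 39.9 to 150.2 (median 108) in inactive females and males, which overlapped. Its interaction was -0.82 ± 0.48, adjusted p = 0.368, with 1 active male, number 29, well below the other 5. Cry1, a repressor of Bmal1, was likewise lower in all active males (568 to 768, median 652) than in any active female (813 to 1087, median 1030.3), but its interaction was -0.14 ± 0.37, adjusted p = 0.882. The interactions of Clock (-0.21, adjusted p = 0.152), Nfil3 (-0.53, adjusted p = 0.346) and Rora (-0.064, adjusted p = 0.747) did not pass either. A p above the threshold does not show that the sexes changed alike. Inactive females also differed among themselves. Numbers 31, 32 and 34 had Arntl at 148.5 to 164 and Ciart at 180 to 314. Numbers 33, 35 and 36 had Arntl at 36.2 to 76.9 and Ciart at 509 to 666. The cause of this spread was not tested.

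Dbp (ENSMUSG00000059824), a PAR bZIP activator and one of the strongest rhythmic outputs of the clock, was at 52.5 to 92.6 (median 68.3) in active and 1497 to 2609 (median 2261) in inactive females. It was at 75.2 to 294 (median 133) in active and 1425 to 1835 (median 1716) in inactive males. Of the 6 active males 5 lay above every active female, and of the 6 inactive females 4 lay above every inactive male. The fall was 30.1-fold in females and 12-fold in males, and the interaction was 1.32 ± 0.31, adjusted p = 0.0242.

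Nr1d2 (ENSMUSG00000021775), which encodes the repressor Rev-erb beta, gave the smallest adjusted p of the clock genes. It was at 1216 to 1916 (median 1390.2) in active females and 2024 to 2980.0 (median 2286) in active males, which did not overlap, and at 6921 to 9810.2 (median 8201) and 6316 to 7687 (median 7007) in inactive females and males, which did. The fall was 5.56-fold in females and 2.91-fold in males, with an interaction of 0.93 ± 0.15, adjusted p = 0.00384. Nr1d1 (ENSMUSG00000020889), which encodes Rev-erb alpha, fell further in both sexes. It was at 62.2 to 118 (median 100.5) in active and 1979.6 to 2492 (median 2278) in inactive females, and at 85.2 to 187 (median 131) and 1159.9 to 1923 (median 1713) in active and inactive males. Here the sexes were separate in the inactive period, with every inactive male below every inactive female, and they overlapped in the active period. The fall was 24-fold in females and 12.4-fold in males, and the interaction was 0.95 ± 0.25, adjusted p = 0.0379.

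Per3 (ENSMUSG00000028957), the period gene with the D-box pair printed above, was at 586 to 970.0 (median 696) in active and 1844 to 2948 (median 2308) in inactive females. It was at 718 to 1182 (median 834) in active and 1406 to 1826 (median 1605) in inactive males. Every inactive male was below every inactive female, whereas the active groups overlapped. The fall was 3.25-fold in females and 1.84-fold in males, and the interaction was 0.82 ± 0.19, adjusted p = 0.0208. The other period genes did not pass, at -0.25 for Per1 (adjusted p = 0.844) and 0.41 for Per2 (adjusted p = 0.496).

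Tef (ENSMUSG00000022389), the PAR bZIP gene whose promoter is printed above, was at 4067 to 5624 (median 5301) in active females and 6055 to 9823 (median 7477) in active males. Every active male lay above every active female, while inactive females (8612 to 11936, median 10976) and inactive males (9500.1 to 11179, median 10392) overlapped. In females the periods were separate, and in males active male 29 reached into the inactive range. The fall was 2.12-fold in females and 1.37-fold in males, with an interaction of 0.63 ± 0.13, adjusted p = 0.0128. Its relative Hlf did not pass, at 0.16 (adjusted p = 0.273). Ciart, a repressor of the Bmal1 complex with 3 E-boxes in the promoter shown, fell 6.25-fold in females and 5.16-fold in males, and its interaction was 0.28 ± 0.35, adjusted p = 0.713. The repressors Bhlhe41 (0.37, adjusted p = 0.422), Bhlhe40 (0.02, adjusted p = 0.971) and Cry2 (0.15, adjusted p = 0.528) and the clock output Usp2, a ubiquitin protease (0.27, adjusted p = 0.43), did not pass. Cry2 and Per2 were the 2 genes of this arm that were higher in the active period in males, against 7 lower.

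Among the 6 active males, number 29 had the lowest Arntl, at 405, and the lowest Npas2, at 147. It also had the highest Dbp, at 294, Tef, at 9823, Per3, at 1182, and Nr1d2, at 2980.0 normalized counts. In each of these genes it was the active male nearest to the inactive males. It had the highest Nfil3, at 676, farthest from the inactive males, and lay between the other active males for Cry1, at 646, and Nr1d1, at 159. Without active males 26 and 29, Npas2 (adjusted p = 0.0442), Nr1d2 (0.0128), Dbp (0.0364) and Tef (0.0442) passed, and Nr1d1 (adjusted p = 0.0916) and Per3 (0.0654) did not, with estimates of 0.95 and 0.73 against 0.95 and 0.82 in all libraries. With the length and GC trend removed, Nr1d1 (adjusted p = 0.0892) and Dbp (0.0723) did not pass and the other 4 did. Without active females 27 and 28, Dbp (1.285, adjusted p = 0.0617) and Nr1d1 (0.94, adjusted p = 0.0631) did not pass and the other 4 did. Of the 6 calls, 5 held in each of the 24 fits that left out 1 library, and the call of Nr1d1 held in 14 of them, with an adjusted p of 0.0153 to 0.0735.

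**Figure D4:**
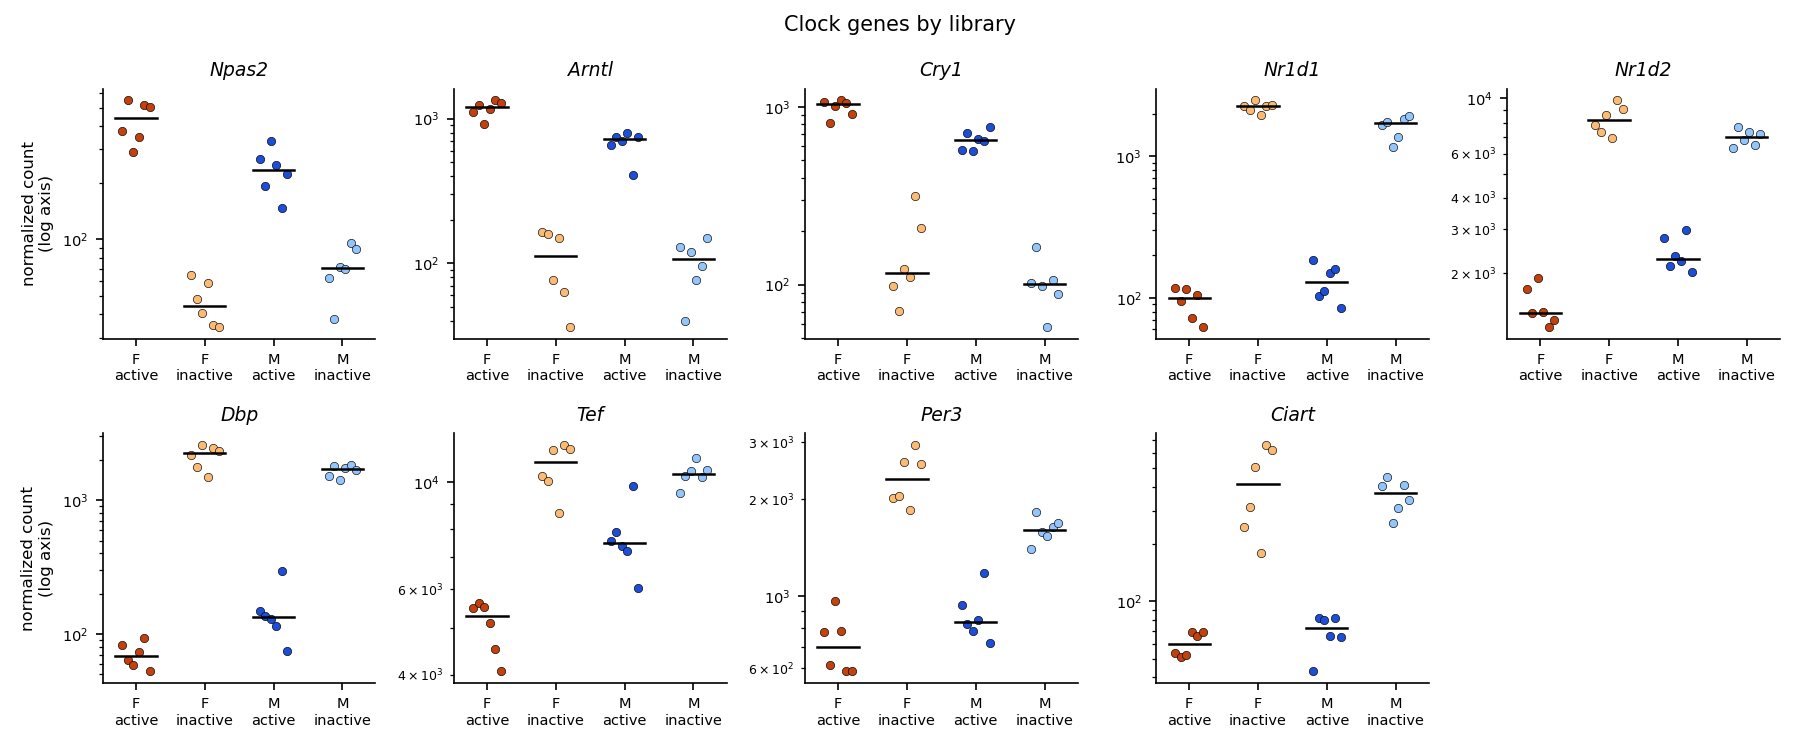
Normalized counts (log axis) of 9 clock genes in each library, 6 libraries in each of 4 groups, with the median as a bar; points within a group are spread sideways in the order of their title numbers. The active and inactive groups lie closer together in males than in females for Npas2, Nr1d2, Dbp, Tef and Per3, and 1 active male, number 29, is the lowest for Arntl and the highest for Dbp and Tef.

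Outside the clock, Cxcl1, Dusp1, Rasd1, Gdf15, Jun and Zfp36 were among the 12 named genes with the lowest interactions, with estimates above 0 in females and below 0 in males. Dusp1 (ENSMUSG00000024190), the phosphatase that switches off MAP kinases, rose in females and fell in males. It was at 1401 to 5197 (median 3032) in active and 933 to 1742 (median 1344) in inactive females, and at 808 to 2004 (median 1328) in active and 1481 to 6057 (median 2912) in inactive males. The periods overlapped in both sexes, and the highest libraries were inactive male 36 and active female 26. The rise in females was 2.21-fold (log2 1.14 ± 0.34, adjusted p = 0.0261), the fall in males 2.25-fold (log2 -1.17 ± 0.34, adjusted p = 0.0244), and the interaction -2.31 ± 0.48, adjusted p = 0.0146. Dusp1 was the opposite gene with the largest interaction among the 35 that passed in both sexes, and it passed in each fit that left out 1 library, without active males 26 and 29 (adjusted p = 0.0445) and with the trend removed (adjusted p = 0.0163).

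Jun (ENSMUSG00000052684), a subunit of the AP-1 transcription factor, followed the same shape. It was at 999 to 1983 (median 1412) in active and 579 to 1139 (median 846) in inactive females, and at 676 to 1939.7 (median 939) in active and 1022 to 6566 (median 3216) in inactive males. Inactive males 36, 33 and 31 were the highest of all libraries, at 6566, 3996 and 3926. Jun fell 2.46-fold in males (adjusted p = 0.0211) and did not pass in females (adjusted p = 0.225). The interaction was -2.0 ± 0.52, adjusted p = 0.0419, and the call held in 6 of 24 fits that left out 1 library (adjusted p = 0.0121 to 0.0766) and in neither check on the trend (adjusted p = 0.0517 with it removed and 0.136 without active males 26 and 29), with estimates of -2.09 and -1.77. Zfp36, whose product speeds the decay of short-lived messages, gave -1.59 ± 0.39, adjusted p = 0.0324, held in 15 of 24 such fits (adjusted p = 0.0141 to 0.0583), passed with the trend removed (adjusted p = 0.0371) and did not pass without active males 26 and 29 (-1.53, adjusted p = 0.0997). In the list of 16 immediate early genes, 2 passed, Dusp1 and Jun, both lower (1.30% of all genes passed lower). The median interaction was -1.10 against 0.0095 over all genes, and 14 of 16 estimates were below 0. Fos (-3.98, adjusted p = 0.107), Nr4a1 (-3.15, adjusted p = 0.127) and Egr1 (-2.67, adjusted p = 0.234), which encode transcription factors induced within minutes of a stimulus, had larger estimates but did not pass. The summed level of the 16 genes was 5812 to 16131 in active females, 4963 to 8143 in inactive females, 4144 to 21066 in active males and 6244 to 29559 in inactive males, so it overlapped between all groups. Inactive males 31, 33 and 36 were at 23572, 25436 and 29559, and inactive males 32, 34 and 35 at 6556, 6244 and 13380. Active male 30 was at 21066 and the next active male at 9570. Inactive males 31, 33 and 36 were also the highest inactive males for Dusp1, at 3140, 3699 and 6057. The part of these libraries in the result was not tested.

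Gdf15 (ENSMUSG00000038508), a stress-induced hormone of the TGF beta family, rose 2.6-fold in females, with 17.7 to 56.6 (median 37.9) in inactive and 57.7 to 136 (median 96.6) in active kidneys, with no overlap. In males it was at 40.9 to 115 (median 78.4) in active and 40.6 to 233 (median 130.4) in inactive kidneys and did not pass (adjusted p = 0.171). Its interaction was -2.05 ± 0.47, adjusted p = 0.0186. Rasd1, a Ras-like gene induced by glucocorticoids, fell 2.35-fold in males, with 67 to 119 (median 80.4) in active and 90.8 to 369.8 (median 222) in inactive kidneys, and its interaction was -2.07 ± 0.42, adjusted p = 0.0119. Cxcl1, a chemokine that draws neutrophils, fell 2.76-fold in males, and its interaction was -2.44 ± 0.56, adjusted p = 0.0198. With the length and GC trend removed all 3 passed (adjusted p = 0.0133 for Gdf15, 0.0122 for Rasd1 and 0.0331 for Cxcl1). Without active males 26 and 29 none of these 3 passed (adjusted p = 0.0654, 0.052 and 0.056), with estimates of -1.91, -1.98 and -2.52. Of 16 glucocorticoid targets, 1 passed, Dusp1, lower (1.30% of all genes passed lower). The median interaction was -0.18, and 10 of 16 estimates were below 0. In the active period 5 of the 16 were higher and 1 lower in females (7.97% and 6.98% of all genes). In males 3 were higher and 4 lower (8.43% and 6.95%). The classical targets Tsc22d3 and Fkbp5 rose in both sexes, with interactions of 0.056 (adjusted p = 0.944) and -0.063 (adjusted p = 0.92). Of 14 tubule injury genes, Cxcl1 passed lower and Krt8, a keratin of simple epithelia, higher (0.32 ± 0.079, adjusted p = 0.0261). The shares of all genes were 1.30% lower and 1.41% higher. Krt8 fell in females and did not pass without active male 29 (adjusted p = 0.0501), inactive male 33 (0.0501), the pair of 26 and 29 (0.0916) or with the trend removed (0.297).

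Several genes of mitosis had negative interactions. Of 27 genes of cell division and DNA replication, 5 passed the interaction, all lower: Mki67, Cdc20, Kif11, Nusap1 and Cdk1 (1.30% of all genes passed lower). In males 7 of the 27 were lower in the active period (6.95% of all genes were lower in males) and 1, Mcm6, a helicase subunit, was higher (8.43% of all genes). In females 0 of 27 passed by limma, with 8 at an unadjusted p under 0.05. The median interaction of the list was -0.75 and 21 of 27 estimates were below 0. With the length and GC trend removed 2 of the 27 passed, and without active males 26 and 29 the number was 3. Active females 27 and 28 had the highest summed level of the list, at 5774 and 6026, against 4374 to 4730.3 in the other 4 active females. Without these 2 libraries 1 of the 27 passed, Mki67, and the median interaction was -0.55.

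Mki67 (ENSMUSG00000031004), which coats mitotic chromosomes and marks dividing cells, was at 176 to 405 (median 222) in active and 162 to 236 (median 196) in inactive females, which overlapped. In active males it was at 88.5 to 157 (median 123) and in inactive males at 192 to 319 (median 237), with no overlap. Active males were below every other group, also below every active female. Active females 27 and 28 were the highest of their group, at 334 and 405, and the highest of the other 4 was at 238. The fall in males was 1.97-fold, and the interaction was -1.32 ± 0.24, adjusted p = 0.00465. It passed in each fit that left out 1 library, with the trend removed (adjusted p = 0.00551), without active males 26 and 29 (adjusted p = 0.0164) and without active females 27 and 28 (-1.03, adjusted p = 0.00892).

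Cdc20, the activator of the anaphase-promoting complex, was at 17.6 to 38.7 (median 26.2) in active and 39.5 to 91.3 (median 54.5) in inactive males, a fall of 2.18-fold, and at 30.1 to 60 (median 36.4) and 26.1 to 36.4 (median 32) in active and inactive females. Its interaction was -1.42 ± 0.33, adjusted p = 0.0179, and adjusted p = 0.0459 without active males 26 and 29. Cdk1, the kinase that starts mitosis, passed in neither sex on its own (adjusted p = 0.079 in females and 0.083 in males), and its interaction was -1.45 ± 0.40, adjusted p = 0.0422. Active females 27 and 28, at 139 and 125, lay far above the other 4, of which the highest was at 54.4. The spindle gene Hmmr had the same pair of high libraries, at 99.5 and 128, and an interaction of -2.02 ± 0.51, adjusted p = 0.0282. It did not pass without active female 28 (adjusted p = 0.0527), active male 29 (0.0527) or inactive male 36 (0.0561). Ckap2, another spindle gene, fell 2.42-fold in males and gave -1.91 ± 0.44, adjusted p = 0.0177. Cdk1 passed in 10 of 24 fits that left out 1 library (adjusted p = 0.0231 to 0.0869), and without active males 26 and 29 neither Cdk1 (adjusted p = 0.142) nor Hmmr (0.102) nor Ckap2 (0.0574) passed. With the trend removed Ckap2 passed (adjusted p = 0.0266) and Cdk1 (0.066) and Hmmr (0.0543) did not. Nusap1, a microtubule-bundling gene, and Dnmt3b, a DNA methyltransferase, also passed in neither sex, with interactions of -0.69 ± 0.19, adjusted p = 0.039 and -1.15 ± 0.29, adjusted p = 0.027. Nusap1 passed in 10 of 24 fits that left out 1 library (adjusted p = 0.0109 to 0.0769), Dnmt3b not without active female 30 (0.0539) or inactive male 33 (0.0504), and neither without active males 26 and 29 (0.122 and 0.0925). With the trend removed Dnmt3b passed (0.032) and Nusap1 did not (0.0886). Without active females 27 and 28 Dnmt3b passed (adjusted p = 0.0376), and Cdk1 (-0.96, adjusted p = 0.141), Hmmr (-1.35, adjusted p = 0.0848), Ckap2 (0.0595), Cdc20 (0.0599) and Nusap1 (0.0925) did not.

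The markers of lymphocytes, cells that can divide in tissue, were set beside this list. Of 10 lymphocyte markers 0 passed the interaction by limma (0 at an unadjusted p under 0.05, 0 by edgeR and 0 by DESeq2), and their summed level was 1281 to 2465 in active females, 994 to 2111 in inactive females, 728 to 1109 in active males and 474 to 2165 in inactive males. Of 7 macrophage markers 0 passed by limma (0 at an unadjusted p under 0.05, 0 by edgeR and 0 by DESeq2), at 6249 to 7913 in active females, 5515 to 7949 in inactive females, 5608 to 8965 in active males and 4977 to 6659 in inactive males. These ranges overlapped between the periods of each sex. Among all tested genes 2.71% passed, so 0 calls in lists this short do not set them apart. The interaction estimate was below 0 for 7 of the 10 lymphocyte markers (median -0.30) and above 0 for all 7 macrophage markers (median 0.39). The part of lymphocytes and macrophages in the result was not tested.

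**Figure D5:**
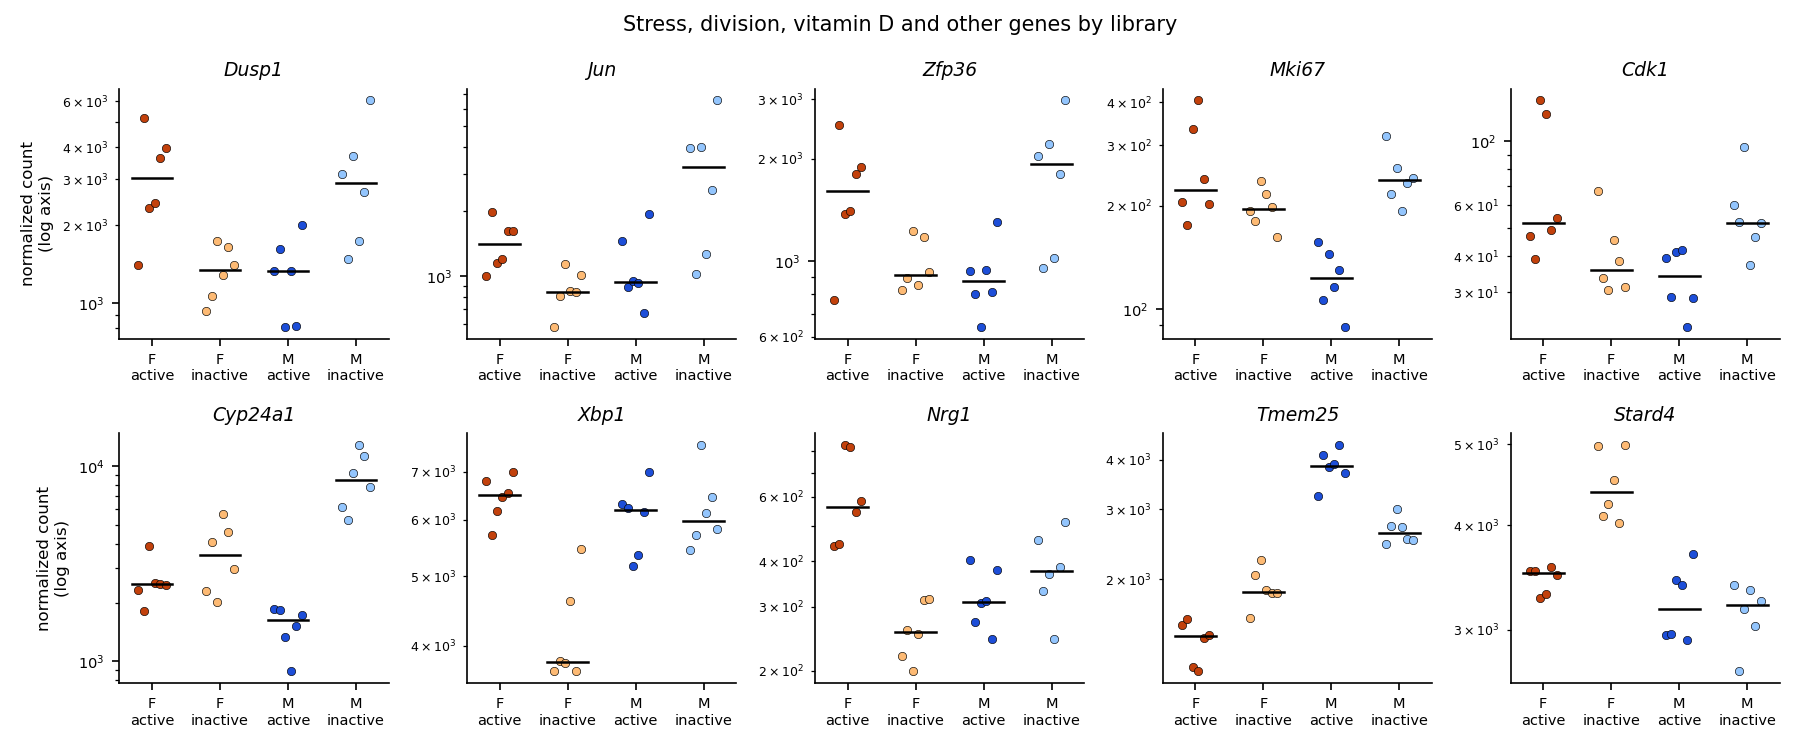
Normalized counts (log axis) of 10 genes outside the clock in each library, 6 libraries in each of 4 groups, with the median as a bar. Dusp1 is high in active females and inactive males, Cyp24a1 has its highest median in inactive males, Mki67 is low in the active males, and Tmem25 is high in the active males and low in the active females.

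A vitamin D gene had one of the clearest differences. Cyp24a1 (ENSMUSG00000038567), whose enzyme breaks down the hormone form of vitamin D, fell in active males and did not pass in females. It was at 1814 to 3880.0 (median 2485) in active and 2018 to 5665 (median 3526) in inactive females, which overlapped. In active males it was at 887 to 1848 (median 1619) and in inactive males at 5309 to 12904 (median 8543), far apart. The male fall was 5.67-fold (log2 -2.50 ± 0.27, adjusted p = 4.42e-06), the female estimate -0.42 ± 0.27, adjusted p = 0.344, and the interaction -2.09 ± 0.38, adjusted p = 0.00713. The sex difference changed sign between the periods, with log2 -0.77 ± 0.27, adjusted p = 0.0183 for male against female in the active and 1.32 ± 0.27, adjusted p = 0.000301 in the inactive period. The call held in each fit that left out 1 library, with the trend removed (adjusted p = 0.00951) and without active males 26 and 29 (adjusted p = 0.0183).

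Of 18 genes of vitamin D, calcium and phosphate handling, Cyp24a1 passed lower and Slc34a1 higher (1.30% and 1.41% of all genes). Slc34a1, the main phosphate transporter of the proximal tubule, fell 1.18-fold in active females and did not pass in males (adjusted p = 0.195), with an interaction of 0.35 ± 0.087, adjusted p = 0.0228. Cyp27b1, the enzyme that makes the active hormone (0.53, adjusted p = 0.689), the vitamin D receptor gene Vdr (-0.25, adjusted p = 0.23) and the calcium channel Trpv5 (-0.027, adjusted p = 0.93) did not pass. Slc34a1 did not pass with the trend removed (adjusted p = 0.0881) or without active males 26 and 29 (adjusted p = 0.0765).

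Many genes that fold proteins in the endoplasmic reticulum rose in the active period of both sexes, and for some of them the rise was larger in females. Of 25 such genes, 19 were higher in active females, where 7.97% of all genes were, and 12 in active males, where 8.43% were. Of the 25, 5 passed the interaction, all lower (1.30% of all genes passed lower): Xbp1, Canx, Dnajc3, Pdia3 and Hsp90b1. The median interaction was -0.40, and 23 of 25 estimates were below 0. The summed level of the list was 228848 to 274265 in active females, 133991 to 187466 in inactive females, 198502 to 285317 in active males and 184134 to 201300.4 in inactive males.

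Xbp1 (ENSMUSG00000020484), the transcription factor of the unfolded protein response, was at 5701 to 6999.6 (median 6495) in active and 3686 to 5459 (median 3801) in inactive females, with no overlap. In active males it was at 5168 to 6999 (median 6188) and in inactive males at 5446 to 7632 (median 5973), which overlapped throughout. The inactive females had the lowest median of the 4 groups. The rise in females was 1.56-fold, the male estimate was -0.037 ± 0.093, adjusted p = 0.833, and the interaction was -0.68 ± 0.13, adjusted p = 0.0078. Canx, the chaperone calnexin, rose 1.33-fold in females and did not pass in males (adjusted p = 0.293), with an interaction of -0.33 ± 0.079, adjusted p = 0.0216. The co-chaperone Dnajc3 (-0.40, adjusted p = 0.0244), the disulfide isomerase Pdia3 (-0.44, adjusted p = 0.0244) and the chaperone Hsp90b1 (-0.59, adjusted p = 0.044) were the others. The main chaperone Hspa5 had a larger estimate (-0.68) that did not pass (adjusted p = 0.113), and of 20 cytosolic heat shock genes 0 passed by limma (2 at an unadjusted p under 0.05, 0 by edgeR and 0 by DESeq2), with a median of -0.055. Among all tested genes 2.71% passed. Hsp90b1 passed in 7 of 24 fits that left out 1 library (adjusted p = 0.0205 to 0.0817). With the length and GC trend removed Canx did not pass (adjusted p = 0.165) and 2 of the 25 did, and without active males 26 and 29 the number was 3.

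The growth factor gene Nrg1 (ENSMUSG00000062991), a ligand of ErbB receptors, rose in females and did not pass in males. It was at 439 to 835 (median 564) in active and 199 to 315 (median 256) in inactive females, which did not overlap, and at 244 to 404 (median 309) in active and 245 to 512 (median 377) in inactive males, which did. Every active female lay above every active male. The female rise was 2.3-fold, the male estimate was -0.24 ± 0.18, adjusted p = 0.384, and the interaction was -1.45 ± 0.25, adjusted p = 0.00465, with adjusted p = 0.02 without active males 26 and 29.

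Of the 12 named genes with the highest interactions, Tmem25, Fitm1, Selenoh, Dnase1, Mogat2 and Nrap fell in active females, as did Dbp in the clock. Tmem25 (ENSMUSG00000002032), which encodes a transmembrane protein, had the smallest adjusted p of the genes named here. It was at 1168 to 1581 (median 1431) in active and 1597 to 2235 (median 1859) in inactive females, and at 3239 to 4373 (median 3869) in active and 2455 to 3009.6 (median 2613) in inactive males. None of these pairs overlapped: active was below inactive in females, above it in males, and males were above females in both periods. The fall in females was 1.37-fold, the rise in males 1.45-fold, and the interaction 1.0 ± 0.11, adjusted p = 2.37e-05. It passed in each fit that left out 1 library, and the adjusted p was 0.000458 without active males 26 and 29.

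Fitm1, which helps form lipid droplets, fell 1.64-fold in females, with 89.6 to 128 (median 112) in active and 147 to 222 (median 176) in inactive kidneys, with no overlap. In males it was at 240.5 to 388 (median 325) in active and 198 to 330.3 (median 254) in inactive kidneys, which overlapped, and the interaction was 1.0 ± 0.19, adjusted p = 0.00592. Selenoh, a selenoprotein gene, fell 1.74-fold in females and gave 1.07 ± 0.21, adjusted p = 0.00713. Both were called in each fit that left out 1 library and without active males 26 and 29 (adjusted p = 0.0278 and 0.0302). Dnase1, the secreted DNA-cutting enzyme, fell 1.62-fold in females with an interaction of 0.96 ± 0.20, adjusted p = 0.0158, and Mogat2, an enzyme of triglyceride synthesis, fell 2.66-fold with 1.54 ± 0.41, adjusted p = 0.0432. Nrap, an actin-anchoring gene that fell 3.7-fold in females, was at 7.83 to 17.8 (median 12.7) in active and 24.5 to 64.5 (median 52.8) in inactive females and gave 1.25 ± 0.34, adjusted p = 0.0422. Without active males 26 and 29 these last 3 did not pass (adjusted p = 0.0604 for Dnase1, 0.135 for Mogat2 and 0.0654 for Nrap), with estimates of 0.79, 1.41 and 1.35. Mogat2 passed in 8 of 24 and Nrap in 7 of 24 fits that left out 1 library (adjusted p = 0.0237 to 0.0805 and 0.0156 to 0.0835). With the trend removed Dnase1 passed (0.022) and Mogat2 (0.0876) and Nrap (0.064) did not.

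Other genes with large positive interactions rose in active males. Ifitm1, an interferon-induced membrane gene, rose 2.13-fold in males, with 81.2 to 204 (median 109.7) in inactive and 177 to 358 (median 257) in active kidneys, and gave 1.0 ± 0.27, adjusted p = 0.0388. Trpv3, a cation channel of the TRP family, rose 2.07-fold and gave 1.14 ± 0.32, adjusted p = 0.0472. The acyltransferase gene Gpat2 rose 1.72-fold (1.16 ± 0.32, adjusted p = 0.0422), the carbonyl reductase gene Cbr2 1.75-fold (0.98 ± 0.23, adjusted p = 0.0198) and the calsyntenin gene Clstn2 1.59-fold (0.96 ± 0.26, adjusted p = 0.0422). Of these 5, 0 passed with the trend removed (adjusted p from 0.0543 to 0.0895) or without active males 26 and 29 (from 0.0668 to 0.143). Their estimates in these checks were 0.91 and 0.83 for Ifitm1, 1.19 and 1.18 for Trpv3, 1.07 and 1.08 for Gpat2, 0.80 and 0.90 for Cbr2 and 0.95 and 0.98 for Clstn2. Ifitm1 passed in 9 of 24, Trpv3 in 6 of 24, Gpat2 in 8 of 24 and Clstn2 in 10 of 24 fits that left out 1 library, with adjusted p-values up to 0.0902. Mfap5, a gene of elastic fibres, moved in opposite directions that both passed. It was at 11.7 to 27.5 (median 17.1) in active and 26.3 to 42.5 (median 32.6) in inactive females, and at 16.9 to 40 (median 27.4) in active and 6.93 to 17.5 (median 11.6) in inactive males. Its interaction was 1.98 ± 0.39, adjusted p = 0.00621, with adjusted p = 0.0128 without active males 26 and 29. Of 8 markers of fibroblasts, pericytes and smooth muscle, Col1a1 and Col1a2, the chains of type I collagen, passed higher (adjusted p = 0.0222 and 0.0291) but not without active males 26 and 29 (0.0863 and 0.102). With the trend removed 2 of the 8 passed, and the number was also 2 without active females 27 and 28. The summed level of the 8 was 10060.0 to 13259 in active females, 9701 to 13747 in inactive females, 8015 to 9286 in active males and 5692 to 9002 in inactive males. Among all tested genes 1.41% passed higher. The part of fibroblasts, pericytes and smooth muscle in the result for Mfap5 was not tested.

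Of 23 genes of sodium, potassium and chloride transport, 2 passed, in opposite directions (2.71% of all genes passed). Fxyd4 (ENSMUSG00000004988), which regulates the sodium pump of the collecting duct, was at 696 to 919 (median 816) in active and 1003 to 1295 (median 1117) in inactive females, with no overlap, and at 858 to 976 (median 949.9) and 800.1 to 986 (median 869) in active and inactive males, which overlapped. Its fall in females was 1.41-fold and the interaction 0.57 ± 0.11, adjusted p = 0.00497, and it passed with the trend removed (adjusted p = 0.0108) and without active males 26 and 29 (0.0187). Slc12a1, the sodium, potassium and chloride cotransporter of the thick ascending limb, passed in neither sex (adjusted p = 0.112 in females and 0.0594 in males) and gave -0.31 ± 0.084, adjusted p = 0.0426, passing in 9 of 24 fits that left out 1 library (adjusted p = 0.0185 to 0.0835). Hsd11b2, which shields the mineralocorticoid receptor from glucocorticoids, was the 1 gene of 14 in WNK, SGK and aldosterone signalling that passed. It rose 1.29-fold in males, with 2262 to 2803 (median 2593) in inactive and 2970.4 to 3664 (median 3392) in active kidneys, without overlap, with an interaction of 0.30 ± 0.075, adjusted p = 0.0249. Neither Slc12a1 nor Hsd11b2 passed with the trend removed (adjusted p = 0.0934 and 0.353) or without active males 26 and 29 (0.129 and 0.0916).

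Of 28 organic ion transporters and efflux pumps, 2 passed, both higher (1.41% of all genes passed higher). Slc22a28 (ENSMUSG00000063590), of the organic anion transporter family and far higher in males, was at 774 to 1183 (median 894) in active and 1203 to 2040.2 (median 1559.6) in inactive females, and at 10470.3 to 13446 (median 11814) and 9599.5 to 11418 (median 10831) in active and inactive males. The periods were separate in females and overlapped in males. The female fall was 1.66-fold and the interaction 0.89 ± 0.16, adjusted p = 0.00621, with adjusted p = 0.0288 without active males 26 and 29. Slc22a4, a carrier of ergothioneine and organic cations, fell 1.64-fold in females and gave 0.53 ± 0.13, adjusted p = 0.0277, passed with the trend removed (adjusted p = 0.0421) and did not pass without active males 26 and 29 (0.42, adjusted p = 0.107), nor without active female 28 alone (0.0527), inactive female 33 (0.0515), active male 26 (0.056) or inactive male 33 (0.0501). Slc22a28 belongs to a family of near-identical neighbours, so how the counting shared reads among them is uncertain.

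Of 26 genes of cholesterol synthesis and control, Stard4 and Ebp passed higher and Idi1, an isomerase early in the pathway, lower (-0.82, adjusted p = 0.0293, and 0.117 without active males 26 and 29). Among all tested genes 1.41% passed higher and 1.30% lower. Estimates were above 0 in 17 of the 26, and 0 of the 26 passed lower with the trend removed. Stard4 (ENSMUSG00000024378), which carries cholesterol between membranes, was at 3273 to 3567 (median 3507) in active and 4027 to 4996 (median 4383) in inactive females, with no overlap. In males it was at 2917 to 3699 (median 3178) and 2675 to 3398 (median 3211) in active and inactive kidneys, which overlapped. Inactive females stood above the other 3 groups. The fall in females was 1.29-fold and the interaction 0.41 ± 0.092, adjusted p = 0.0149, which also passed with the trend removed (adjusted p = 0.00454) and without active males 26 and 29 (0.0128). Ebp, an isomerase of sterol synthesis, gave 0.43 ± 0.10, adjusted p = 0.0224, passed with the trend removed (adjusted p = 0.0336) and did not pass without the pair (0.33, adjusted p = 0.0916). Among 25 genes known for sex-biased levels in the kidney, 1 passed, against 2.71% of all tested genes. This was Hsd17b11, a steroid dehydrogenase, which rose 1.21-fold in active males and gave 0.43 ± 0.10, adjusted p = 0.0186. Its adjusted p was 0.0193 with the trend removed and 0.069 without the pair, where the estimate was 0.41. Rdh10, which makes retinal for retinoic acid, rose in both sexes, 1.69-fold in females and 1.38-fold in males, with an interaction of -0.29 ± 0.083, adjusted p = 0.0477 that passed in 6 of 24 fits leaving out 1 library (adjusted p = 0.0257 to 0.0923) and in neither check on the trend (0.106 and 0.11).

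Most genes of ribosomes and most nuclear genes of the respiratory chain had small estimates above 0, with lower medians once the length and GC trend was removed. Of 82 cytosolic ribosomal protein genes tested, 41 were higher in active males (8.43% of all genes) and 0 in active females (7.97%), 81 estimates of the interaction were above 0, and 1 gene, Rpl3, passed, against 1.41% of all genes passing higher (0.23 ± 0.065, adjusted p = 0.0468, passing in 5 of 24 fits leaving out 1 library, adjusted p = 0.0163 to 0.0853). The median interaction of the 82 was 0.17, which became 0.067 with the length and GC trend removed and 0.066 without active males 26 and 29. Of 84 nuclear genes of the respiratory chain, 35 were higher in active males and 1 in active females, and Atp5g2, a subunit of ATP synthase (0.39 ± 0.096, adjusted p = 0.0228), Cyc1, cytochrome c1 (0.35 ± 0.085, adjusted p = 0.0223), and Ndufc2, of complex I (0.29, adjusted p = 0.0388), passed. Their median of 0.16 became 0.099 and 0.066 under the same checks, and 0 of the 84 passed in either. Of 77 mitochondrial ribosomal protein genes 4 passed higher and 1 lower, led by Mrpl27 (0.42 ± 0.10, adjusted p = 0.0196) and Mrpl54 (0.50 ± 0.12, adjusted p = 0.0206), neither of which passed without active males 26 and 29 (0.0814 and 0.0834). With the trend removed Mrpl27 passed (adjusted p = 0.0331) and Mrpl54 did not (0.145). The 13 genes of the respiratory chain in the mitochondrial genome all had estimates below 0, with a median of -0.11. This median became -0.056 with the length and GC trend removed and -0.13 without active males 26 and 29. Of the 13, 6 were lower in active males (6.95% of all genes) and 0 in active females (6.98%). The autophagy receptor gene Sqstm1, the 1 of 18 autophagy genes that passed, gave 0.24 ± 0.059, adjusted p = 0.0247 and did not pass with the trend removed (adjusted p = 0.105), without active males 26 and 29 (0.0697) or without active female 28 alone (0.0525).

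Outside the clock and the division genes, 18 called named genes did not pass without active females 27 and 28: Atp5g2, Clstn2, Cxcl1, Cyc1, Dnase1, Ebp, Gdf15, Jun, Mogat2, Mrpl27, Mrpl54, Rpl3, Slc12a1, Slc22a4, Slc34a1, Sqstm1, Trpv3 and Zfp36. Their adjusted p ran from 0.05003 for Dnase1 to 0.108 for Trpv3.

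Transcript length and GC content differed with the direction of the interaction. The 245 genes with a male change above the female change had a median transcript length of 1919 bases and a GC content of 54.2%, and the 225 below it 4198 bases and 44.8%, against 3078 bases and 49.3% over all tested genes. Across 16996 genes with a length, the interaction correlated with log2 length at r = -0.12 and with GC content at r = 0.22. The male period change correlated with GC content at r = 0.18 and the female change at r = -0.059. Genes are not independent and all share the same libraries, so these values are descriptions.

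Seen from the other side, the interaction is also the change of the sex difference from the inactive to the active period. Males and females differed in 10509 genes in the active period (60.6%) and 9662 in the inactive period (55.7%). For the 470 called genes the estimated sex difference had opposite signs in the 2 periods in 171, was wider in the active period in 225 and wider in the inactive period in 74. It passed in both periods in 254, in the active period alone in 136 and in the inactive period alone in 80. Npas2 is an example of a changed sign, at log2 -0.88 ± 0.21, adjusted p = 0.000777 for male against female in the active period and 0.57 ± 0.21, adjusted p = 0.0253 in the inactive period. Tmem25 is one of a wider gap in the active period, at 1.48 ± 0.08 against 0.48 ± 0.08.

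The cell types of the kidney were checked by their markers. All listed markers of the tubule segments, podocytes and endothelium passed the filter on low values. Among all tested genes 1.41% passed the interaction higher and 1.30% lower. Of the markers of proximal tubule, 1 of 8 passed the interaction (Slc34a1, higher), of the thick ascending limb 1 of 5 (Slc12a1, lower), of principal cells 2 of 6 (Fxyd4 and Hsd11b2, higher) and of intercalated cells 1 of 6 (Atp6v0d2, a proton pump subunit, lower, adjusted p = 0.0341 and 0.105 without active males 26 and 29). Of the distal convoluted tubule 0 of 5 passed by limma (0 at an unadjusted p under 0.05, 0 by edgeR and 0 by DESeq2), of podocytes 0 of 5 (2 at an unadjusted p under 0.05, 0 by edgeR and 2 by DESeq2) and of endothelium 0 of 6 (1 at an unadjusted p under 0.05, 0 by edgeR and 0 by DESeq2). The summed principal cell markers were 9310.2 to 12222 in active females, 11699 to 14026 in inactive females, 11146 to 12803 in active males and 9381 to 11952 in inactive males, and those of the thick ascending limb 93228 to 107808 in active females, 71027 to 93496 in inactive females, 60894 to 75518 in active males and 60071 to 80442 in inactive males. The ranges of the periods overlapped in each sex for both sums, but in females those of the thick ascending limb shared only 93228 to 93496. Of the thick ascending limb markers 3 were at an unadjusted p under 0.05, 1 passed by edgeR and 3 by DESeq2. The same counts were 4, 2 and 3 for principal cells, and 3, 1 and 1 for both proximal tubule and intercalated cells. The share of these cells in the results for Fxyd4, Hsd11b2 and Slc12a1 was not tested. Of adrenal cortex, Cyp11b1, Cyp11b2 and Cyp21a1 had means under 1 normalized count.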

How the data were processed

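The deposited table holds 1 signal value per gene and library, read counts scaled by the authors with 1 factor for each library, as the values show. The submitters' processing notes name the build GRCm39 and the tools DESeq2 1.28.1, featureCounts, Trim Galore 0.6.10 and Subread 2.0.6, without their roles. Annotation and strand setting: not given in the sources used here. Without a strand setting, genes that overlap on opposite strands cannot be told apart. Of 56748 identifiers 52073 matched a symbol in GENCODE M21, which also gave transcript length and GC content, and where several shared a symbol (67 symbols) the most abundant kept it. Whole reads could be recovered for all values, 100% within 0.05. Recovered depth was 31 to 39.3 M reads per library, which limits genes near the filter most.

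A single limma model of the 24 libraries was fitted to log2(normalized count + 1), with limma 3.58.1 (R 4.3.3) with a robust prior on the variance that follows the mean (20 residual degrees of freedom), on the 17333 genes with a mean of at least 10. Adjustment was by Benjamini-Hochberg within each contrast, with a threshold of 0.05. Log2 values are given ± SE, n = 6 libraries per group. edgeR 4.0.16 on the recovered reads called 537 genes for the interaction. The script was tested on simulated data.

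The comparison, the gene lists and the marker sets were chosen with earlier results of these data known. Named genes are the 12 highest and the 12 lowest called interactions with a group mean of at least 50, leaving out model identifiers, all genes of the 2 clock arms but 1, which is not reported here and is left out of the counts of its arm, up to 2 called genes with the smallest p from each other list, and the opposite genes passing in both sexes (2) or in neither (3) with the largest interactions. Other list members are named only to describe a count. Alternatives were pseudocounts, filters, scalings, library weights, a plain prior, edgeR, DESeq2 1.42.0, each library left out, and the title number as a block. Removal of the length and GC trend (splines with 5 degrees of freedom) and leaving out active males 26 and 29 or active females 27 and 28 were added after the data were seen. Coordinates are of RefSeq promoters on GRCm38.p6 only.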

Additional observations from a re-analysis of the deposited data

Results flagged for a closer look

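In 52 named genes the period change differed between males and females by the interaction test itself (limma, adjusted p under 0.05); each value below is that difference, male minus female, in log2 units. In the clock it was -1.45 for Npas2, 1.32 for Dbp, 0.95 for Nr1d1, 0.93 for Nr1d2, 0.82 for Per3 and 0.63 for Tef. Among stress, injury and growth factor genes it was -2.44 for Cxcl1, -2.31 for Dusp1, -2.07 for Rasd1, -2.05 for Gdf15, -2.0 for Jun, -1.59 for Zfp36, -1.45 for Nrg1, 0.32 for Krt8 and 1.0 for Ifitm1. Among genes of division and DNA methylation it was -2.02 for Hmmr, -1.91 for Ckap2, -1.45 for Cdk1, -1.42 for Cdc20, -1.32 for Mki67, -1.15 for Dnmt3b and -0.69 for Nusap1. Among genes of protein folding and autophagy it was -0.68 for Xbp1, -0.33 for Canx and 0.24 for Sqstm1. Among transport, vitamin D, sterol, steroid and retinoid genes it was -2.09 for Cyp24a1, 0.35 for Slc34a1, 0.57 for Fxyd4, -0.31 for Slc12a1, 0.30 for Hsd11b2, 0.89 for Slc22a28, 0.53 for Slc22a4, 0.41 for Stard4, 0.43 for Ebp, 0.43 for Hsd17b11, -0.29 for Rdh10 and 1.14 for Trpv3. Among the remaining genes it was 1.98 for Mfap5, 1.54 for Mogat2, 1.25 for Nrap, 1.16 for Gpat2, 1.07 for Selenoh, 1.0 for Fitm1, 1.0 for Tmem25, 0.98 for Cbr2, 0.96 for Clstn2, 0.96 for Dnase1, 0.50 for Mrpl54, 0.42 for Mrpl27, 0.39 for Atp5g2, 0.35 for Cyc1 and 0.23 for Rpl3.

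In 9 cases 1 library lay far from the other 5 of its group by the gap test of Dixon. Chance gives about 1 such case in 20 groups, and 260 groups were looked at. The low ones were Arntl in active male 29, at 405 against 659 to 793 normalized counts in the others, Ciart in active male 25, at 42.8 against 65.2 to 82.2, Cbr2 in active female 30, at 46.7 against 71.2 to 87.0, Trpv3 in active female 27, at 32 against 54.1 to 68.2, Nrap in inactive female 36, at 24.5 against 47.5 to 64.5, and Hsd17b11 in inactive male 31, at 12376 against 15780.1 to 17712. The high ones were Cbr2 in active male 26, at 155 against 102 to 116, and, both in active female 26, Slc22a4 at 1567 against 1092 to 1210.3 and Usp2 at 3817 against 2548 to 2931.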

How the results depend on the processing

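The period by sex interaction count of 470 moved by over 1.5 times under 6 settings beside single libraries: 247 with no filter on low values (35332 genes tested), 289 with a plain variance prior, 946 with DESeq2, 216 with the length and GC trend removed, 153 without active males 26 and 29, which leaves 4 active males, and 301 without active females 27 and 28. The cause was not tested for the prior, DESeq2 or the trend. The male period count of 2665 became 1342 without the male pair. Leaving out 1 library in turn gave 276 to 780 for the interaction, past 1.5 times without active female 28 (276), inactive female 32 (293), inactive female 33 (290), inactive male 33 (293) or active male 25 (780), 2066 to 2782 for the period in females, 1835 to 3274 in males, and 9993 to 10549 and 9106 to 9823 for male against female in the active and inactive periods. Male and female libraries with the same title number correlated at -0.104 to 0.124 over 12 pairs, 1 of them over 0.1. Weak correlations of this kind cannot decide if such libraries had more in common than their number. With the title number as a replicate block the interaction count was 531, with 399 of the 470 among them, and 4 of 12 libraries correlated best with their own number; for the period change in females and the period change in males it was 2592 and 2662, for male against female, active period, 10297 and for male against female, inactive period, 9448. Rescaling to equal totals gave 359 higher and 224 lower against 245 and 225, and moved the direction of no named call. Of the 52 called named genes, 34 lost their call without the male pair, 25 without the female pair and 24 with the trend removed, and the estimate moved by over 1.5 times in 0, 1 and 5 of these. These 3 checks were chosen after seeing the data. For Ckap2, Mfap5 and Nrap DESeq2 gave no adjusted p. Genes near 10 normalized counts have the largest counting error, and a difference there may not be detectable at this depth.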

Other observations

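The genes in this paragraph were chosen after their values were seen, from the 470 called genes. Of the 470, 105 were called under both checks on the trend, and whether these genes are among them is not given here. Further genes had a larger change in females. Slc16a1, which carries lactate and ketone bodies across membranes, rose in the active period 3.34-fold in females, with 657 to 986 (median 799) in inactive and 2096 to 2985 (median 2798) in active kidneys, and 2.07-fold in males, with 1030.2 to 1185 (median 1126) in inactive and 2185 to 2605 (median 2280.5) in active kidneys (interaction -0.69 ± 0.12, adjusted p = 0.00267). Ndrg1, a gene induced by low oxygen, rose 3.1-fold and 1.89-fold (interaction -0.71 ± 0.15, adjusted p = 0.0146). A1cf, a partner of the RNA-editing enzyme of apolipoprotein B, rose 2.05-fold in females, with 903 to 1290.4 (median 1017) in inactive and 1929 to 2296 (median 2191) in active kidneys, with 1037 to 1684 (median 1296) in active and 1046 to 1505 (median 1232) in inactive males, which did not pass (adjusted p = 0.597, interaction -0.95 ± 0.15, adjusted p = 0.00267).

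Acy1, Qdpr, Gpd1 and Dcxr, which were also chosen after their values were seen, were among the 35 genes that moved in opposite directions. Acy1, an aminoacylase, fell 1.46-fold in active females, with 3626 to 4825 (median 3784) in inactive and 2330.3 to 3811 (median 2591) in active kidneys, and rose 1.3-fold in active males, with 3466 to 4544 (median 3947) in inactive and 4094 to 6494 (median 5061) in active kidneys (interaction 0.93 ± 0.16, adjusted p = 0.00465). The same directions held for Qdpr, which recycles tetrahydrobiopterin (0.49 ± 0.083, adjusted p = 0.00267), Gpd1, glycerol-3-phosphate dehydrogenase (0.49 ± 0.092, adjusted p = 0.00505), and Dcxr, a carbonyl and xylulose reductase (0.60 ± 0.11, adjusted p = 0.00621). Acy1, Qdpr, Gpd1 and Dcxr were also called with the length and GC trend removed (adjusted p = 0.00726, 0.00489, 0.0254 and 0.0266) and without active males 26 and 29 (0.0148, 0.0128, 0.0194 and 0.0198).

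In several lists 0 genes passed the interaction by limma. Among all tested genes 2.71% passed, so 0 calls in a list this short do not set it apart from other genes. Of clock kinases and ubiquitin ligases (9 genes) there were 2 at an unadjusted p under 0.05, 0 by edgeR and 1 by DESeq2. Of water channels, vasopressin receptors and urea transporters (11) there were 5 at an unadjusted p under 0.05, 0 by edgeR and 1 by DESeq2. Sugar and amino acid uptake (20) gave 5 at an unadjusted p under 0.05, 1 by edgeR and 2 by DESeq2, and fatty acid oxidation (27) gave 6 at an unadjusted p under 0.05, 1 by edgeR and 3 by DESeq2. Gluconeogenesis and ammonia production (9) gave 4 at an unadjusted p under 0.05, 0 by edgeR and 0 by DESeq2, and the mitochondrial genes of the respiratory chain (13) gave 4 at an unadjusted p under 0.05, 0 by edgeR and 1 by DESeq2. Renin-angiotensin genes (9) and hormone signalling (13) each gave 2 at an unadjusted p under 0.05, 0 by edgeR and 0 by DESeq2. The cold-inducible RNA-binding proteins (2), interferon response (17) and markers of red blood cells (5), adipocytes (6 tested), urothelium (5) and skeletal muscle (2 tested) each gave 0 at an unadjusted p under 0.05, 0 by edgeR and 0 by DESeq2.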
